A study of Homo sapiens with 6 samples.

Results

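The genes described here are the negative-feedback and early-response genes of the ERK pathway. They were chosen by gene symbol alone: the dual-specificity phosphatases named DUSP with a number, the Sproutys (SPRY1 to SPRY4), the Spreds (SPRED1 to SPRED3) and 22 early genes fixed by name. This gave 53 genes of the 26255 listed in the deposited table, and the choice used no measured value. The table holds the mRNA levels of 6 libraries of NCI-H1299, a human lung carcinoma cell line, cultured in RPMI-1640 with fetal bovine serum and with no stimulus named in the labels. In 3 libraries the cells carried a control shRNA (shControl), and in 3 they carried an shRNA against Ephexin1 (shEphexin1), a guanine nucleotide exchange factor encoded by NGEF. Both shRNAs were expressed from a pSilencer plasmid with a U6 promoter in stably selected cells, with a selection marker that the labels and the study's methods name differently. The names of the 3 shEphexin1 libraries share the stem shB2-3, so that all of them may come from 1 clone, and the labels do not say that replicates were separate cultures. The p-values below therefore measure the spread between these libraries, which may be technical.

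ERK, the last kinase of the RAS-RAF-MEK-ERK cascade, turns on a set of genes within minutes to hours of its activation. Early genes such as FOS, EGR1 and IER2 encode transcription factors and other regulators, while the ERK-induced DUSP phosphatases dephosphorylate ERK, and Sprouty and Spred proteins act on the cascade further upstream. Because the mRNAs of the feedback genes follow ERK output closely, DUSP6, SPRY2, SPRY4, ETV4, ETV5 and PHLDA1 are often read together as a measure of ERK pathway activity in tumor cells. H1299 cells carry an activating mutation of NRAS. The study asked whether Ephexin1 takes part in this signaling, so the comparison of shEphexin1 with shControl addresses whether these mRNAs differ after Ephexin1 knockdown.

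The authors calculated FPKM for each library, which count sequenced fragments relative to transcript length and to the fragments mapped. Read counts are not part of these values, and depth is therefore unknown. Between 16958 and 17509 genes were above 0 FPKM in a library. NGEF was at 13.3, 11.7 and 16.4 FPKM across the shControl libraries against 9.81, 8.25 and 10.5 FPKM across the shEphexin1 libraries, and 68.9% of its mean in shControl was left in shEphexin1 (log2 fold change -0.53, with 0.163 as its standard error, SE, limma's adjusted p = 0.103). The keratin mRNAs KRT8 and KRT18 and the vimentin mRNA VIM were present in every library, at no less than 2.65, 36.3 and 1979 FPKM, respectively. KRT8 and KRT18 were lower in shEphexin1 (log2 fold changes of -1.07 and -0.94, adjusted p = 0.0304 and 0.0439 from limma). PTPRC, PECAM1 and ALB, markers of blood, endothelium and liver, were at or under 0.162 FPKM. In both groups replicate 2 stood apart from replicates 1 and 3. Across genes, the deviation of a library from its group mean fell with the GC content of the gene in replicate 2 (Spearman's rho of -0.688 for shControl, -0.759 for shEphexin1) and rose with it in the other 4 libraries (0.336 to 0.664). Results are therefore also given for replicates 1 and 3 alone. The part of this difference in each result was not tested.

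Of the 53 genes, 46 reached 0.1 FPKM in 3 or more of 6 libraries and were tested. The groups were compared on log2(FPKM + 0.1) with limma over all 16020 genes that passed this filter, with Benjamini-Hochberg adjustment over all of them. No gene of the 46 reached the thresholds of the study, an adjusted p of at most 0.025 with a difference of at least 2-fold, which 1.89% of all genes tested reached. Without a fold threshold, 4 of the 46 genes (8.70%) passed an adjusted p of 0.05, against 7.01% of all genes tested. These were EGR1 and KLF6, which rose in shEphexin1 as 2.69% of all genes did, and SPRY2 and PHLDA1, which fell as 4.32% did. An unadjusted p of at most 0.05 was found for 14 of the 46 genes (30.4%) and for 23.3% of all genes tested. Separate ranges of FPKM in the groups were seen for 14 genes (30.4%), 6 higher and 8 lower in shEphexin1, where the share of all genes tested was 28.3% (12.8% higher and 15.4% lower). EGR3 is among the 14 genes of both counts and among the 6, although it passed the filter through the shEphexin1 libraries only and so had to differ. Each of these shares is near that of all genes. The fold changes of the 46 genes were spread around 0, with 25 genes above 0 and 21 genes below 0. The median log2 fold change was 0.026, with a range of -0.94 to 1.21 (EGR3) and 0.86 (EGR1) as the next highest value. The median over all genes tested was -0.0093, and the median size of the log2 fold change without its sign was 0.26 for the 46 genes and 0.24 for all genes.

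**Figure D1:**
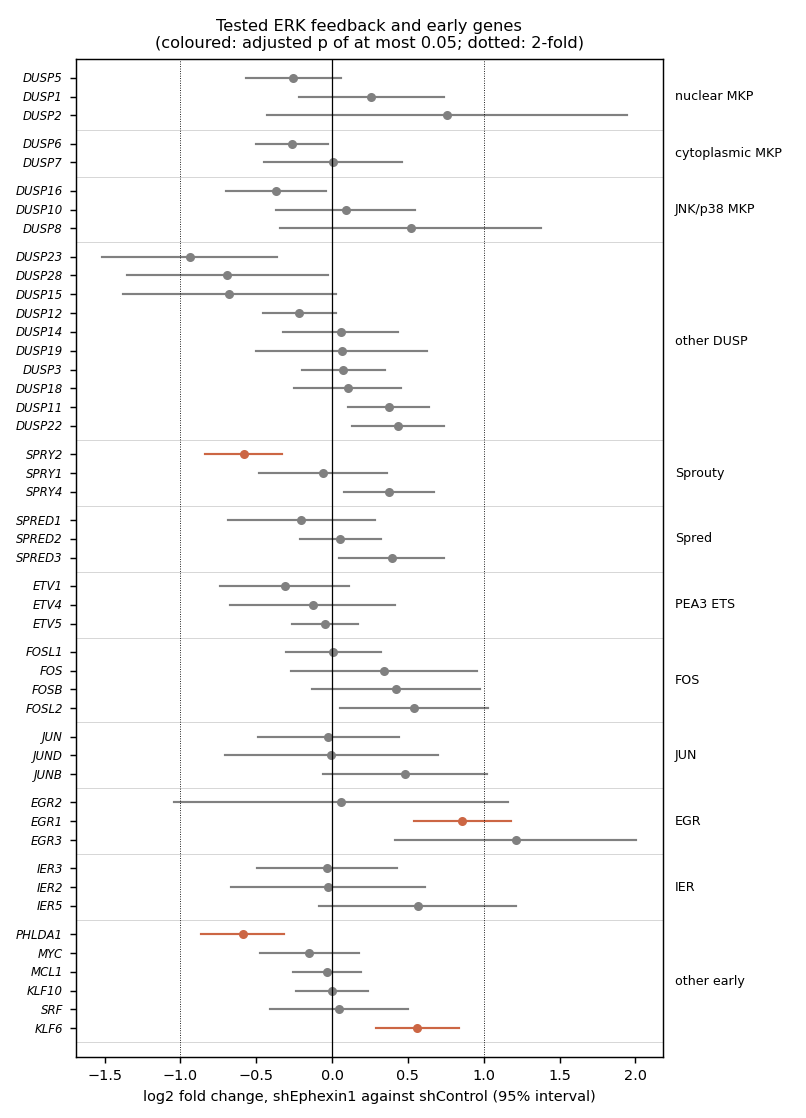
Log2 fold change of shEphexin1 against shControl (x axis, on the scale of log2(FPKM + 0.1)) for the 46 tested genes (y axis, grouped by role), with the 95% confidence interval of the limma fit as a bar, the genes that passed an adjusted p of 0.05 in colour and dotted lines at 2-fold. The coloured genes are SPRY2 and PHLDA1 to the left of 0 and EGR1 and KLF6 to the right, and genes on both sides of 0 appear in most of the roles.

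EGR1, an early zinc-finger transcription factor that ERK induces through serum response elements, showed the largest increase among the genes past the threshold. It was at 2.94, 3.15 and 2.74 FPKM across the shControl libraries against 5.21, 5.20 and 5.86 FPKM across the shEphexin1 libraries. All 3 shEphexin1 libraries were above all 3 shControl libraries, and the gap between the groups was wider than the range within either of them. The mean was 2.94 ± 0.208 FPKM for shControl against 5.42 ± 0.379 FPKM for shEphexin1 (SD over libraries, n = 3 for both), a 1.81-fold difference on the log2(FPKM + 0.1) scale (log2 fold change 0.86, SE 0.137, limma's adjusted p = 0.0158). KLF6, an early zinc-finger factor of the Krüppel-like family, was at 11.6, 12.2 and 11.9 FPKM across the shControl libraries against 19.7, 17.0 and 16.3 FPKM across the shEphexin1 libraries. The shControl libraries lay close together, and each shEphexin1 library was above them (log2 fold change 0.56, SE 0.117, limma's adjusted p = 0.0354). From replicates 1 and 3 only, log2 fold changes were 0.94 for EGR1 (adjusted p = 0.0103 from limma) and 0.61 for KLF6 (adjusted p = 0.0194).

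SPRY2, a Sprouty that restrains receptor tyrosine kinase signaling to ERK, was at 49.5, 47.6 and 56.4 FPKM across the shControl libraries against 36.2, 33.3 and 32.7 FPKM across the shEphexin1 libraries. Every shEphexin1 library was lower than every shControl library, and 66.6% of the shControl mean was left. The mean was 51.2 ± 4.64 FPKM for shControl against 34.1 ± 1.88 FPKM for shEphexin1 (SD over libraries, n = 3 for both), for a log2 difference of -0.58 (SE 0.109, adjusted p = 0.0257 from limma). PHLDA1, a pleckstrin homology-like protein whose mRNA follows ERK activity, was at 103, 109.5 and 102 FPKM across the shControl libraries against 71.8, 77.6 and 60.6 FPKM across the shEphexin1 libraries. It showed the same order of the libraries, with no shEphexin1 value reaching the shControl values and 66.7% of the mean left. Its log2 fold change was -0.59 (SE 0.117, adjusted p = 0.0312 from limma). In replicates 1 and 3 alone the log2 fold changes of SPRY2 and PHLDA1 were -0.62 and -0.64 (adjusted p = 0.0114 and 0.00999 from limma). PHLDA1 lies on 12q, where the median log2 fold change of the expressed genes was -0.17, and with this median subtracted its value was -0.42.

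**Figure D2:**
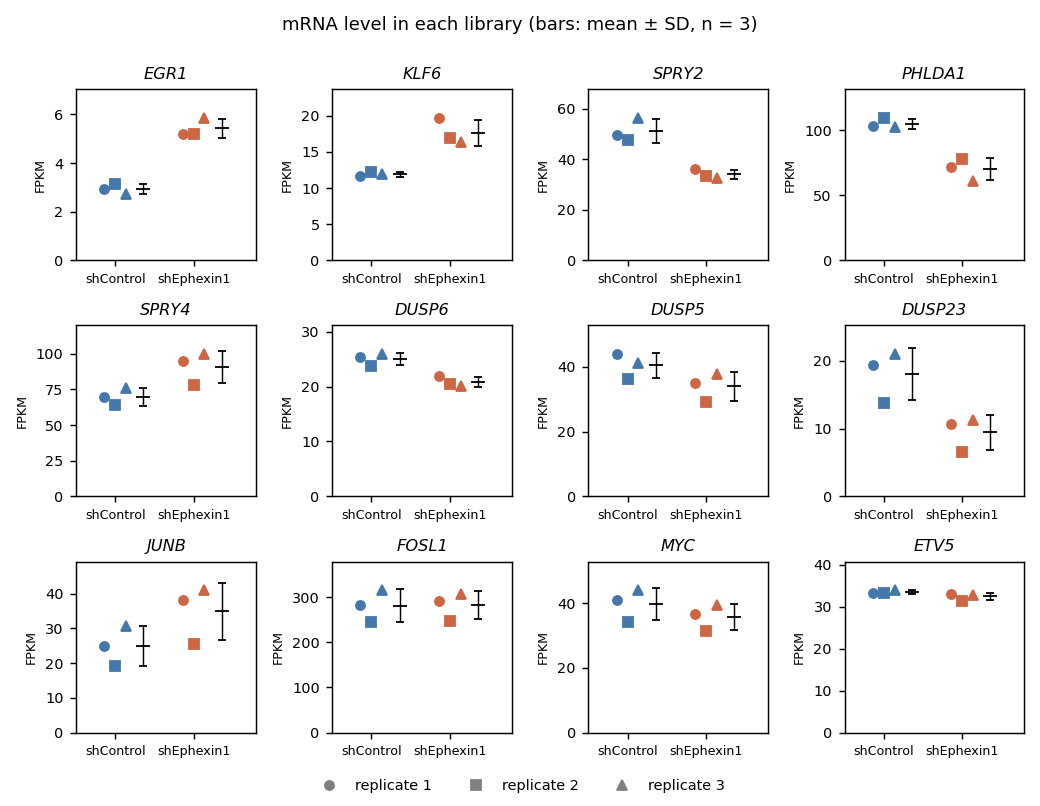
FPKM (y axis, from 0) of 12 genes in each library of shControl (blue) and shEphexin1 (orange), with the replicate number as the marker shape and the mean ± SD of the 3 libraries as a black bar. EGR1 and KLF6 lie higher in shEphexin1, and SPRY2 and PHLDA1 lower, with no overlap of the libraries, while FOSL1 and MYC overlap between the groups.

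The calls of these 4 genes depended on which libraries were in the fit, and all 4 passed with replicates 1 and 3 alone. With 1 library left out at a time, the adjusted p ranged from 0.0232 to 0.0946 for EGR1, from 0.0414 to 0.167 for KLF6, from 0.0371 to 0.125 for SPRY2 and from 0.0217 to 0.139 for PHLDA1 (limma). When replicate 1 or 3 of shControl, or replicate 1 or 3 of shEphexin1, was the library left out, 0 of the 46 genes passed an adjusted p of 0.05. In the same 4 fits, 155 to 307 of all genes tested did, compared with 1123 with all libraries. Without shControl replicate 2 only EGR1 and SPRY2 passed, and without shEphexin1 replicate 2 all 4 passed together with SPRY4. The direction was the same in each of these fits, with log2 fold changes of 0.80 to 0.91 for EGR1, 0.48 to 0.62 for KLF6, -0.63 to -0.51 for SPRY2 and -0.67 to -0.49 for PHLDA1. With quantile normalization PHLDA1 lost its call and SPRY4 gained one, and KLF6, SPRY2 and PHLDA1 lost theirs without the intensity trend of limma.

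On GRCh37, EGR1 lies on chromosome 5 from 137801168 to 137804992 on the plus strand, and KLF6 on chromosome 10 from 3818188 to 3827473 on the minus strand. SPRY2 lies on chromosome 13 from 80910111 to 80915261 on the minus strand, and PHLDA1 on chromosome 12 from 76419227 to 76425556 on the minus strand. The exons of PHLDA1 share 553 bases with PHLDA1-AS1 on the opposite strand in GENCODE, and whether the authors' counting used strand is not given in the sources used here. Exons of DUSP6, ETV4, IER2, IER3, JUNB and MYC also overlap those of genes on the opposite strand. For EGR1, KLF6, SPRY2 and SPRY4 no annotated gene shares exon bases. The 250 bases before the RefSeq start of EGR1, which rose, and of PHLDA1 and SPRY2, which fell, are printed (GRCh38.p14, in the direction of transcription). These windows were searched for 5 sequence motifs. Capitals mark the motifs found on either strand: the CArG box of the serum response factor, the AP-1 site TGANTCA, the cyclic AMP response element TGACGTCA, the EGR site GCGNGGGCG and the ETS core CCGGAA. None of the matches in these windows overlapped another kind of motif.
EGR1, chr5:138465229-138465478, plus strand: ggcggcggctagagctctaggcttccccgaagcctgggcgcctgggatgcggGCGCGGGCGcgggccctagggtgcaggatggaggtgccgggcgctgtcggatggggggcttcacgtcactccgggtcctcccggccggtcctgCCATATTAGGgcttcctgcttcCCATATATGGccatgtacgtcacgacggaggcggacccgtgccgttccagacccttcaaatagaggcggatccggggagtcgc
PHLDA1, chr12:76031777-76032026, minus strand: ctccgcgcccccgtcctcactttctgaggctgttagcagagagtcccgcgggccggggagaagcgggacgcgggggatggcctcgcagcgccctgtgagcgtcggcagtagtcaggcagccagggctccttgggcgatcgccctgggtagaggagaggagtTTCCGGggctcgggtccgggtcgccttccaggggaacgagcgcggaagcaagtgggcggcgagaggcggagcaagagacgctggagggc
SPRY2, chr13:80341127-80341376, minus strand, the most upstream of its 3 listed starts: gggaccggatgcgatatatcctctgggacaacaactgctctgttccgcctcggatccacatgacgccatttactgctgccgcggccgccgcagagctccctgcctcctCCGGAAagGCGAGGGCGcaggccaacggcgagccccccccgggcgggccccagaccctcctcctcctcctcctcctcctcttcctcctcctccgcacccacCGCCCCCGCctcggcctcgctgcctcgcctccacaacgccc
The EGR1 window holds 2 CArG boxes, which begin 105 and 83 bases before the start, and 1 EGR site at 198 bases. The PHLDA1 window holds 1 ETS core at 89 bases, and the SPRY2 window 2 EGR sites at 134 and 41 bases and 1 ETS core at 142 bases. None of the 5 motifs was found before the other listed starts of SPRY2. The printed windows hold no AP-1 site and no cyclic AMP response element. The windows before the starts of KLF6 and SPRY4 each hold 1 EGR site and none of the other motifs. The CArG box is found in 1.16% of all 35116 windows of this length in the RefSeq table, and the EGR site in 8.41% and the ETS core in 14.5%. Of the 53 genes, 39 are in that table, with 62 starts. Among them the CArG box was found for EGR1, EGR2 and SRF (4.84% of the starts). The cyclic AMP response element was found for DUSP1, DUSP8 and JUND (4.84%, and 1.65% of all windows). The AP-1 site was found for SPRED3 and SPRY3 (3.23%, and 6.57% of all windows). The EGR site was found before 12 of the 62 starts (19.4%) and the ETS core before 11 (17.7%). These matches describe the letters of the windows and do not show binding.

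No Sprouty other than SPRY2 passed an adjusted p of 0.05. SPRY4 was at 69.5, 63.8 and 76.0 FPKM across the shControl libraries against 94.6, 78.4 and 99.9 FPKM across the shEphexin1 libraries. Its groups did not overlap, and the shEphexin1 libraries were the higher ones, the opposite of SPRY2 (log2 fold change 0.38, SE 0.127, limma's adjusted p = 0.128). With replicates 1 and 3 alone, the value for SPRY4 was 0.42 (adjusted p = 0.0191). The ratio of SPRY4 to SPRY2 within a library, a quantity that a scaling of the library does not alter, was 1.40, 1.34 and 1.35 in shControl and 2.61, 2.35 and 3.06 in shEphexin1. It was chosen after the values had been seen. Its mean was 1.36 ± 0.0348 in shControl and 2.67 ± 0.356 in shEphexin1 (SD, n = 3). Because SPRY4 rose and SPRY2 fell without overlap of the groups, these ratios had to lie apart. The result of the exact permutation (two-sided p = 0.1, below which 3 libraries against 3 cannot go) was therefore fixed and adds no evidence. SPRY1 was at 1.61, 1.59 and 1.95 FPKM across the shControl libraries against 1.89, 1.49 and 1.56 FPKM across the shEphexin1 libraries, with overlapping groups (log2 fold change -0.059, 95% confidence interval -0.48 to 0.36). SPRY3 was under the filter, at no more than 0.0123 FPKM in any library.

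**Figure D3:**
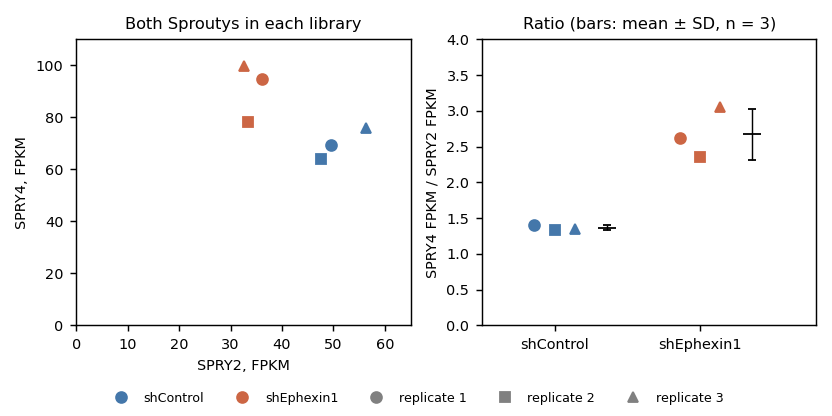
Left, FPKM of SPRY4 (y axis) against FPKM of SPRY2 (x axis) in each library, and right, the ratio of both in each library (y axis, no unit) with the mean ± SD of the 3 libraries of a group. The shEphexin1 libraries lie to the upper left of the shControl libraries, with ratios of 2.35 to 3.06 against 1.34 to 1.40.

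The Spreds, which bind RAS regulators at the membrane, showed small differences. SPRED1 was at 12.6, 15.9 and 10.4 FPKM across the shControl libraries against 10.4, 14.1 and 9.30 FPKM across the shEphexin1 libraries. SPRED2 was at 10.5, 11.4 and 10.7 FPKM across the shControl libraries against 10.6, 11.1 and 12.2 FPKM across the shEphexin1 libraries. The libraries of both groups overlapped for SPRED1 (log2 fold change -0.20, 95% confidence interval -0.69 to 0.28) and SPRED2 (0.055, -0.21 to 0.32). SPRED3, named for its value, had a log2 fold change of 0.39 (adjusted p = 0.170 from limma, and 0.0464 with replicates 1 and 3 alone).

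The MAP kinase phosphatases that ERK induces did not reach an adjusted p of 0.05. DUSP6, the cytoplasmic phosphatase selective for ERK, was at 25.3, 23.8 and 25.9 FPKM across the shControl libraries against 21.9, 20.5 and 20.1 FPKM across the shEphexin1 libraries. Each shEphexin1 library was below each shControl library, by a small margin (log2 fold change -0.26, SE 0.102, 95% confidence interval -0.50 to -0.026, limma's adjusted p = 0.175). DUSP5, the nuclear phosphatase selective for ERK, was at 44.01, 36.4 and 41.1 FPKM across the shControl libraries against 35.0, 29.2 and 37.8 FPKM across the shEphexin1 libraries, with groups that overlapped (log2 fold change -0.26, adjusted p = 0.310 from limma). DUSP4, a nuclear phosphatase induced by ERK in many cell types, was not measurable here, at 0, 0 and 0.0215 FPKM across the shControl libraries against 0.0550, 0.0282 and 0 FPKM across the shEphexin1 libraries. The intervals leave room for decreases of DUSP5 and DUSP6 smaller than 2-fold. With the median log2 fold change of their chromosome arms subtracted (-0.17 on 12q and -0.30 on 10q), the value of DUSP6 was -0.093 and that of DUSP5 turned to 0.048. DUSP6 shares 1105 exon bases with an unnamed noncoding RNA gene on the opposite strand.

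DUSP1, a nuclear phosphatase induced by growth factors and by stress, was at 5.00, 3.50 and 4.97 FPKM across the shControl libraries against 5.60, 4.31 and 6.21 FPKM across the shEphexin1 libraries. DUSP7, a cytoplasmic ERK phosphatase, was at 11.1, 10.3 and 14.8 FPKM across the shControl libraries against 13.4, 9.56 and 13.4 FPKM across the shEphexin1 libraries. The libraries of the groups overlapped for both, with log2 fold changes of 0.26 (95% confidence interval -0.22 to 0.74) and 0.0066 (-0.45 to 0.46). DUSP2, a further nuclear phosphatase, was under 1 FPKM in every library, and DUSP9, the third cytoplasmic one, was under the filter. Among the phosphatases that act on JNK and p38, DUSP10 was at 2.95, 2.68 and 2.92 FPKM across the shControl libraries against 3.02, 3.86 and 2.39 FPKM across the shEphexin1 libraries (log2 fold change 0.089). DUSP16 was at 5.44, 6.75 and 5.94 FPKM across the shControl libraries against 4.56, 5.00 and 4.36 FPKM across the shEphexin1 libraries. All 3 shEphexin1 libraries were below the shControl libraries for DUSP16 (log2 fold change -0.37, adjusted p = 0.169 from limma). DUSP16 lies on 12p, where the median log2 fold change of 169 expressed genes was -0.43, and with this median subtracted its value was 0.061. DUSP8 was at 0.120 to 0.418 FPKM.

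The other DUSPs are small phosphatases that mostly lack a MAP kinase binding domain. Of 14, DUSP13, DUSP21, DUSP26 and DUSP27 were under the filter and listed at 0 in at least 5 libraries, and none of the 10 tested passed an adjusted p of 0.05. The largest difference was that of DUSP23, named here for its value, at 19.3, 13.8 and 21.0 FPKM across the shControl libraries against 10.6, 6.54 and 11.3 FPKM across the shEphexin1 libraries. The shEphexin1 libraries kept 52.5% of the shControl mean with no overlap (log2 fold change -0.94, SE 0.247, limma's adjusted p = 0.0665), and the adjusted p was 0.00484 with replicates 1 and 3 alone. DUSP11, an RNA phosphatase, and DUSP22 were higher in every shEphexin1 library than in every shControl library, also named after their values were seen (log2 fold changes of 0.37 and 0.43, adjusted p = 0.10 and 0.0966 from limma). DUSP12 and DUSP28 were lower without overlap (-0.22 and -0.69, adjusted p = 0.265 and 0.198). DUSP3, DUSP14, DUSP15, DUSP18 and DUSP19 had overlapping groups.

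The PEA3 factors ETV1, ETV4 and ETV5, ETS-family transcription factors whose genes respond to ERK, did not differ beyond the threshold. ETV5 was at 33.2, 33.4 and 34.0 FPKM across the shControl libraries against 33.0, 31.5 and 32.9 FPKM across the shEphexin1 libraries. The shEphexin1 libraries were below the shControl libraries for ETV5 by a very small margin (log2 fold change -0.047, 95% confidence interval -0.26 to 0.17, adjusted p = 0.815 from limma), and the sign turned with quantile normalization (0.025). ETV4 was at 13.5, 7.90 and 13.1 FPKM across the shControl libraries against 11.1, 8.47 and 11.4 FPKM across the shEphexin1 libraries, and replicate 2 was the lowest library of both groups. ETV1 was at 13.1, 16.1 and 13.5 FPKM across the shControl libraries against 10.8, 14.6 and 9.43 FPKM across the shEphexin1 libraries, and there replicate 2 was the highest. The groups overlapped for both, with log2 fold changes of -0.13 (-0.67 to 0.42) for ETV4 and -0.31 (-0.74 to 0.11) for ETV1. With the arm medians subtracted (-0.21 on 17q and -0.25 on 7p), ETV4 turned to 0.080 and ETV1 was at -0.061.

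The AP-1 genes encode the FOS and JUN proteins, which pair to bind DNA. FOSL1, an AP-1 subunit that accumulates under sustained ERK activity, was the most abundant of the 53 genes, at 284, 244 and 316 FPKM across the shControl libraries against 291, 248 and 308 FPKM across the shEphexin1 libraries. The groups covered the same range (log2 fold change 0.0063, 95% confidence interval -0.31 to 0.32, adjusted p = 0.985 from limma). FOS itself was low, at 1.70, 1.72 and 2.43 FPKM across the shControl libraries against 2.03, 2.08 and 3.54 FPKM across the shEphexin1 libraries (log2 fold change 0.34, -0.27 to 0.95). FOSL2 was at 11.5, 9.01 and 13.01 FPKM across the shControl libraries against 17.5, 12.3 and 19.3 FPKM across the shEphexin1 libraries. In FOSL2 only shEphexin1 replicate 2 fell within the shControl range (log2 fold change 0.54, adjusted p = 0.177 from limma), and without replicate 2 of both groups the adjusted p was 0.0174. JUN was at 28.7, 21.9 and 33.7 FPKM across the shControl libraries against 29.4, 21.9 and 31.1 FPKM across the shEphexin1 libraries, with overlapping groups (log2 fold change -0.025, -0.49 to 0.44). JUNB was at 24.9, 19.1 and 30.7 FPKM across the shControl libraries against 38.2, 25.4 and 41.0 FPKM across the shEphexin1 libraries. Again shEphexin1 replicate 2 alone lay within the range of shControl (log2 fold change 0.48, adjusted p = 0.269 from limma, and 0.0300 with replicates 1 and 3 alone). FOSB and JUND had log2 fold changes of 0.42 (-0.14 to 0.97) and -0.0045 (-0.71 to 0.70).

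**Figure D4:**
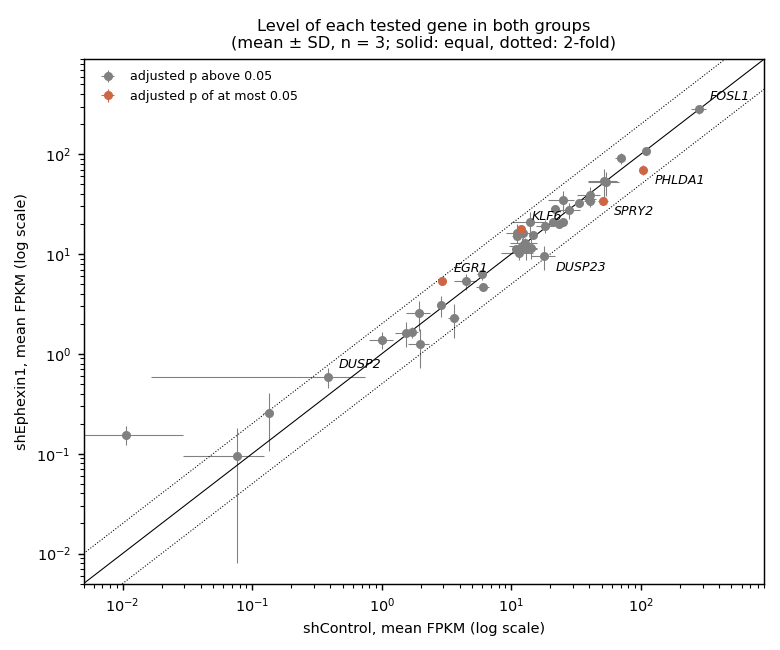
Mean FPKM in shEphexin1 (y axis, log scale) against mean FPKM in shControl (x axis, log scale) of the 46 tested genes, with bars of 1 SD over the 3 libraries of a group, a solid line at equal levels and dotted lines at 2-fold. Bars that would reach 0 or less end at the edge of the plot. The genes lie along the solid line from FOSL1 at the top down to EGR2, EGR3 at the far left lies above the upper 2-fold line, and the 4 genes that passed an adjusted p of 0.05 lie within the 2-fold lines.

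The relatives of EGR1 were near the filter. EGR2 was at no more than 0.170 FPKM in any library. EGR3 was at 0, 0.0321 and 0 FPKM across the shControl libraries against 0.142, 0.130 and 0.195 FPKM across the shEphexin1 libraries, and it passed the filter through the shEphexin1 libraries alone, so that it had to differ and its log2 fold change of 1.21 is given as a description only. Among the IER genes, which encode early regulators without DNA-binding domains of a common family, IER2 was at 59.2, 36.9 and 64.8 FPKM across the shControl libraries against 61.3, 36.2 and 60.2 FPKM across the shEphexin1 libraries. IER3 was at 41.5, 31.8 and 47.5 FPKM across the shControl libraries against 42.8, 30.7 and 44.3 FPKM across the shEphexin1 libraries. Both genes overlapped between the groups and were lowest in replicate 2 of each group (log2 fold changes of -0.028 and -0.034). IER5 was at 13.9, 9.99 and 17.9 FPKM across the shControl libraries against 22.7, 14.1 and 25.4 FPKM across the shEphexin1 libraries. For IER5, shEphexin1 replicates 1 and 3 were above every shControl library and shEphexin1 replicate 2 was within their range (log2 fold change 0.56, -0.086 to 1.21, adjusted p = 0.278 from limma, and 0.0312 with replicates 1 and 3 alone).

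MYC, a transcription factor whose mRNA is induced by growth factors, was at 41.0, 34.2 and 44.1 FPKM across the shControl libraries against 36.7, 31.4 and 39.4 FPKM across the shEphexin1 libraries. The groups overlapped (log2 fold change -0.15, 95% confidence interval -0.47 to 0.18). SRF, the serum response factor that binds the CArG box, was at 13.7, 9.50 and 15.1 FPKM across the shControl libraries against 13.2, 11.3 and 14.5 FPKM across the shEphexin1 libraries (log2 fold change 0.046, -0.41 to 0.50). MCL1, an anti-apoptotic protein of the BCL2 family with a short-lived mRNA, was at 107, 109 and 112 FPKM across the shControl libraries against 108, 113 and 98.8 FPKM across the shEphexin1 libraries. KLF10, a TGF-beta-inducible Krüppel-like factor, was at 22.1, 20.6 and 19.9 FPKM across the shControl libraries against 21.2, 21.3 and 20.0 FPKM across the shEphexin1 libraries. The libraries of MCL1 and KLF10 lay close together in both groups, with log2 fold changes of -0.034 (-0.26 to 0.19) and -0.0013 (-0.24 to 0.24). MYC and KLF10 lie on 8q, with a median of -0.24, and with this subtracted their values turned to 0.092 and 0.24.

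With replicates 1 and 3 alone, 17.3% of all genes tested passed an adjusted p of 0.05. Of the 46 genes a larger share passed, with 12 genes. These were the 4 genes with all libraries, together with DUSP11, DUSP22, FOSL2, IER5, JUNB, SPRED3 and SPRY4, which were higher in shEphexin1, and DUSP23, which was lower. A correction of every library for GC content and transcript length gave 16 genes, with 30.8% of all genes tested past the same threshold. The 4 genes were among them, and so were DUSP5 and DUSP6, with adjusted p = 0.0125 and 0.0247 (limma) and log2 fold changes of -0.30 and -0.22. These values are without the subtraction of the arm medians, which in the uncorrected fit turned DUSP5 and lessened DUSP6.

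Genes around the module were read from 2 further lists. The first held 30 genes of the cascade from receptors to ERK and its direct substrates, of which 29 were tested and 0 reached the thresholds of the study. Only 1 of the 29 (3.45%), MET, passed an adjusted p of 0.05, against 7.01% of all genes tested, and 6 had an unadjusted p of at most 0.05, as had 23.3% of all genes. The count at an adjusted p of 0.05 was 6 with replicates 1 and 3 alone, where 17.3% of all genes tested passed. It was 11 with the GC and length correction, where 30.8% of all genes tested passed. It was 0 without shControl replicate 1, shControl replicate 3 or shEphexin1 replicate 1, fits in which the number over all genes fell too. Without shEphexin1 replicate 2 it was 3. MET, the receptor of hepatocyte growth factor, was at 36.5, 40.3 and 32.7 FPKM across the shControl libraries against 63.6, 74.1 and 60.7 FPKM across the shEphexin1 libraries. All shEphexin1 libraries were above all shControl libraries (log2 fold change 0.86, SE 0.126, limma's adjusted p = 0.0122). MET lies on 7q, where 407 expressed genes had a median log2 fold change of 0.30, and with this subtracted its value was 0.56.

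The second list held 30 genes known to respond to ERK or to serum that the choice by symbol left out. Of the 27 tested, 8 (29.6%) passed an adjusted p of 0.05, 6 higher and 2 lower in shEphexin1, against 7.01% of all genes tested. The list was chosen with earlier results of these data known. Its count was 13 with the GC and length correction, where 30.8% of all genes tested passed. It was 5 without the limma trend, where 912 of all 16020 genes tested passed. It fell to 1 when shControl replicate 1 was left out, to 2 for shControl replicate 3 or shEphexin1 replicate 1, to 3 for shEphexin1 replicate 3 and to 5 for shControl replicate 2. The number over all genes tested fell too when replicate 1 or 3 of either group was left out. CTGF and KLF4 also reached the thresholds of the study. CTGF, a matricellular protein and known target of YAP and SRF, was at 14.7, 13.8 and 13.2 FPKM across the shControl libraries against 29.5, 28.9 and 27.7 FPKM across the shEphexin1 libraries (log2 fold change 1.04, SE 0.103, limma's adjusted p = 0.00296). KLF4, a Krüppel-like factor, was at 4.37, 3.67 and 5.43 FPKM across the shControl libraries against 1.61, 1.18 and 1.35 FPKM across the shEphexin1 libraries (log2 fold change -1.63, SE 0.201, limma's adjusted p = 0.00685). The libraries of CTGF varied little within a group, and KLF4 fell to 30.7% of its shControl mean. PLK2, a kinase induced by serum, was the other gene that fell, at 8.64, 8.90 and 8.11 FPKM across the shControl libraries against 4.75, 5.13 and 4.10 FPKM across the shEphexin1 libraries (log2 fold change -0.87, adjusted p = 0.0148). ERRFI1 and HBEGF are named for their values. ERRFI1, an inhibitor of the EGF receptor, was at 37.3, 42.5 and 36.0 FPKM across the shControl libraries against 61.6, 67.5 and 57.3 FPKM across the shEphexin1 libraries (log2 fold change 0.69, adjusted p = 0.0182 from limma). HBEGF, a ligand of the EGF receptor, was at 7.61, 5.88 and 8.66 FPKM across the shControl libraries against 13.4, 12.1 and 12.6 FPKM across the shEphexin1 libraries (log2 fold change 0.79, adjusted p = 0.0337 from limma). The groups did not overlap for either gene. AREG and EREG, other ligands of this receptor in the list, were under the filter and not tested. UAP1, CYR61 and PLAUR also rose. KLF4 stayed at an adjusted p of at most 0.05 in 17 of 18 other fits, and without shControl replicate 1 or shEphexin1 replicate 1 neither CTGF nor KLF4 reached the thresholds of the study. The call of CTGF by adjusted p held in each of the 18 other fits, whereas that of HBEGF held in 12, that of PLK2 in 14 and those of ERRFI1 and MET in 15.

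**Figure D5:**
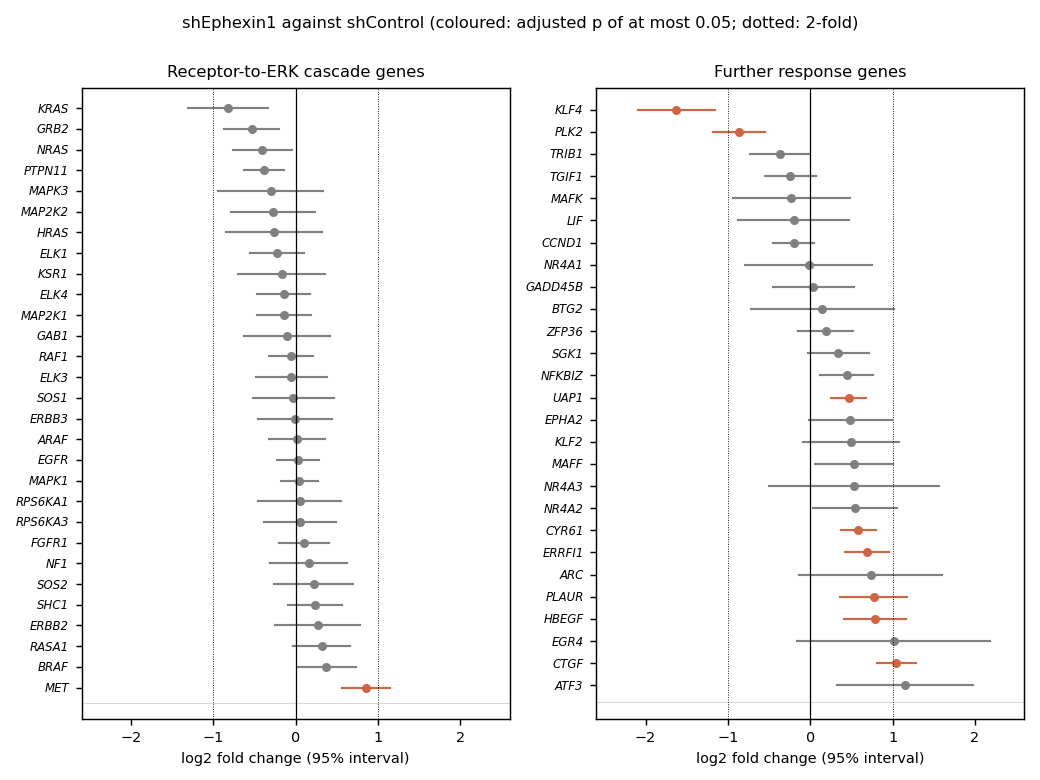
Log2 fold change of shEphexin1 against shControl (x axis, on the scale of log2(FPKM + 0.1)) with 95% confidence intervals for the 29 tested genes of the cascade (left) and the 27 tested further response genes (right), coloured where the adjusted p was at most 0.05, with dotted lines at 2-fold. On the left MET is the single coloured gene, and on the right 2 coloured genes lie below 0 and 6 above it.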

How the data were processed

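RNA was extracted with TRIzol from H1299 cells (3 shControl and 3 shEphexin1 samples), prepared with the TruSeq stranded kit for total RNA and run on a NovaSeq sequencer. After alignment to GRCh37 with TopHat 2.0.13, the authors deposited 1 FPKM value per gene and library, calculated with Cuffdiff of Cufflinks 2.2.1 using geometric library normalization. The gene annotation is not given in the sources used here, and FPKM without counts give no depth, so no counting interval was made. Columns were matched to libraries by the descriptions in the labels, and 0 columns were left out.

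Here, genes that reached 0.1 FPKM in 3 or more of 6 libraries were compared on log2(FPKM + 0.1) with limma 3.58.1 in R 4.3.3 (lmFit, eBayes with trend, Benjamini-Hochberg over 16020 genes). Fold changes on this scale understate those of low genes. The pipeline was tested on simulated data. Positions, GC content and exon overlaps come from GENCODE release 44 on GRCh37, with 23754 of 26253 names matched, and promoters from RefSeq on GRCh38.p14. Expressed genes in arm medians had a mean of at least 1 FPKM. Values per library are given by rule for 30 members fixed by name, for every member past a threshold, and among the further response genes for those past the thresholds of the study and the 3 with the smallest adjusted p (CTGF, KLF4 and PLK2). MET and other genes were named after their values were seen. Genes and lists were chosen with earlier results of these data known. Python 3.11.15, pandas 2.3.3 and matplotlib 3.10.9 were also used.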

Additional observations from a re-analysis of the deposited data

How the results depend on the processing

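At the thresholds of the study, 303 genes of all tested were called, and 139 with a pseudocount of 1 FPKM, 556 with the replicate number as a block, 516 with the GC and length correction, 520 with that correction and the block, and 61 to 316 with 1 library left out. Of the 46 tested members, 0 were called in each fit but that without the limma trend, where 1 was (EGR3). At an adjusted p of at most 0.05 the members numbered 4. The count was 2 without the trend, 5 without a filter (EGR3 added) and 4 with quantile normalization (SPRY4 in place of PHLDA1). It was 12 with replicates 1 and 3 alone, where 17.3% of all genes tested passed. With the GC and length correction it was 16, where 30.8% of all genes tested passed, and 20 with that correction and the block. The block alone gave 21 (45.7% of the members tested, and 33.5% of all genes tested), and leaving 1 library out gave 0 to 5. The calls among the further response genes numbered 2, and 1 with a pseudocount of 1 FPKM, 3 with quantile normalization, 3 with the GC and length correction and the block, and 0 to 2 with 1 library left out. The cascade had 0 calls, and 0 to 1 with 1 library left out (1 without shEphexin1 replicate 2). NGEF passed an adjusted p of 0.05 with the block (log2 fold change -0.53), with replicates 1 and 3 alone (-0.54) and with the GC and length correction (-0.61, with and without the block). At an adjusted p of at most 0.05 the block gave 12 of the cascade (41.4%) and 13 of the further response genes (48.1%). The share of all genes tested was 33.5%. With the block and the GC and length correction together, 5635 of all 15200 genes tested passed this threshold. The cause of these differences was not tested.

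Same-numbered libraries of both groups deviated together with r = 0.091, 0.43 and 0.328 for replicates 1, 2 and 3. The value for replicate 1 was below 0.1 and the labels name nothing shared, so the samples share only a number. Each library correlated best with that of its own number, which is a hint from the data and not the design.

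The directions that turned were those of genes that were not called. With the arm median subtracted, DUSP5, DUSP16, ETV4, KLF10 and MYC turned from lower to higher. With median centring the log2 fold changes were 0.011 for JUN, 0.0078 for IER2, 0.0016 for IER3, 0.0018 for MCL1 and 0.034 for KLF10. With quantile normalization they were 0.025 for ETV5, 0.040 for JUN, 0.065 for IER2, 0.050 for IER3, 0.11 for MCL1 and 0.051 for KLF10. With replicates 1 and 3 alone they were -0.12 for DUSP10, -0.0011 for FOSL1 and -0.057 for SRF. With the GC and length correction, with and without the block, they were -0.11 for DUSP7, -0.013 for FOSL1, -0.12 for SRF, 0.029 for MCL1 and 0.038 for KLF10. With 1 library left out the ranges were -0.10 to 0.17 for DUSP7, -0.080 to 0.25 for DUSP10, -0.38 to 0.0076 for ETV4, -0.092 to 0.10 for FOSL1, -0.28 to 0.22 for IER2, -0.19 to 0.13 for IER3, -0.19 to 0.13 for JUN, -0.034 to 0.040 for KLF10, -0.078 to 0.022 for MCL1, -0.0010 to 0.10 for SPRED2, -0.16 to 0.031 for SPRY1 and -0.15 to 0.18 for SRF. Depth is unknown for these values, so that its limits on low genes such as DUSP4 or EGR3 could not be given.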
